A study of Mus musculus with 2 samples.

Results

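The unfolded protein response and the integrated stress response were followed through 34 genes in single cells of mouse lung, with and without a Cre driver acting on floxed Lkb1. The genes were chosen by symbol, and all 34 were present among the 31053 genes listed in each library. They were kept in 2 arms: a chaperone arm of 26 genes for the sensors, chaperones, folding enzymes and degradation factors of the endoplasmic reticulum, and an Atf4 arm of 8 genes. The Cre animals were Nkx2.1 Cre;Lkb1f/f mice and the controls were Lkb1f/f mice, both aged 5 weeks. Both groups therefore carried the floxed alleles of Lkb1, a kinase gene listed under the symbol Stk11, and the groups differed by the Cre. Nkx2-1 is a transcription factor of lung epithelium, so the driver should act in that lineage rather than in blood, vessel or connective tissue cells of the lung. Where it recombined was not measured here. Each genotype was represented by 1 library of total lung cells from a pool of 3 mice. With a single pool on each side there was no replicate and no test, and an effect of genotype cannot be told apart from one of the pooled mice or of the library preparation.

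The endoplasmic reticulum folds secreted and membrane proteins. When unfolded protein collects there, 3 sensors, Ire1 (Ern1 and, in mucous epithelium, Ern2), Perk (Eif2ak3) and Atf6, start the unfolded protein response, in which spliced Xbp1 and cleaved Atf6 induce chaperones and degradation factors. Perk phosphorylates the translation factor eIF2α, the step it shares with the other kinases of the integrated stress response, and this favours translation of Atf4, which induces genes of amino acid supply and, with Ddit3 (Chop), of cell death. Much of Atf4 and Xbp1 regulation takes place in translation and splicing, which counts of transcripts do not show. In the lung, cells with a heavy secretory load include alveolar type 2 (AT2) cells, which make surfactant, the secretory club cells of the airway, fibroblasts that lay down matrix, and plasma cells.

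The Cre library comprised 16821 barcodes and 81598779 UMIs (unique molecular identifiers, each tagging 1 captured transcript), and the control library 13587 barcodes and 74219499 UMIs. After filtering, 14675 Cre cells with a median of 3250 UMIs and 12455 control cells with a median of 3611 UMIs remained. Of these, 90.6% of Cre and 93.3% of control cells passed a gate on marker genes, and names ending in -like come from that gate alone. Before filtering, the libraries shared 68 barcode sequences, 0.4043% of the Cre and 0.5005% of the control barcodes, and the kept cells shared 59. UMIs were summed over the cells of a class in a library and given as CPM, counts scaled to the same fixed total in every class. Ratios are Cre over control, with exact 95% intervals that cover counting error only. In each class the ratio was set against the median ratio of all genes with at least 50 UMIs over both libraries, and calls were made at a distance of 1.5-fold or more from that median. The log2 ratio after this step is called relative. The all-gene median log2 ratio was 0.24 in AT2-like, 0.09 in AT1-like and 0.64 in club-like cells. In AT2-like and club-like cells the most abundant transcripts took a smaller share of the Cre sum: Sftpc, a surfactant protein, made up 151800 CPM in Cre and 217391 CPM in control AT2-like cells, and Scgb1a1, the club cell secretoglobin, 402200 CPM in Cre and 582621 CPM in control club-like cells.

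Stk11 itself stood at 29.2 CPM in Cre and 49.3 CPM in control AT2-like cells, a ratio of 0.592 (0.525 to 0.668). For AT1-like cells, which line the alveolar surface, it came to 0.607 (0.362 to 1.04), and for club-like cells to 1.08 (0.813 to 1.42). The Cre library thus held fewer Stk11 UMIs in AT2-like cells, while the interval of the other two classes included 1. The reads counted may lie outside the floxed part, so this gene is a weak check of the labels.

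Promoter sequence of the members is shown first, because a set of them shares 1 element. The members were chosen as genes of the response that Atf6 and Xbp1 drive. A shared binding sequence of these factors is therefore no independent result. The endoplasmic reticulum stress response element (ERSE), the binding sequence of Atf6 and Xbp1 together with the factor NF-Y, is written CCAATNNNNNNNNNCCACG. It was searched on both strands in RefSeq windows of GRCm38.p6 from 250 bases before to 50 bases after the gene's start. Of the 21 chaperone-arm genes with a window, 8 held it, against 37 of 27025 genes, or 0.137%. The sites are given on the strand that reads CCAAT first, with the parts of the motif in capitals and the free spacer in lower case.
Hspa5, chr2:34772025-34772043, + strand: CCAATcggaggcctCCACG
Calr, chr8:84847075-84847093, + strand: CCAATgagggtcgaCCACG
Canx, chr11:50325800-50325818, - strand: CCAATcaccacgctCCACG
Creld2, chr15:88819520-88819538, - strand: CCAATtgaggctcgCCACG
Dnajc3, chr14:118937827-118937845, + strand: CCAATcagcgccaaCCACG
Hsp90b1, chr10:86705533-86705551, + strand: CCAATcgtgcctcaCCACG
Hsp90b1, chr10:86705638-86705656, - strand: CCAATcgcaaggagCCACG
Pdia6, chr12:17266491-17266509, + strand: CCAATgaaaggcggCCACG
Syvn1, chr19:6046532-6046550, + strand: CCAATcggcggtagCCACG
The nearest to a start was that of Syvn1, at 44 bases before it, and the farthest was the second site of Hsp90b1, at 212 bases. The related element ERSE-II, ATTGGNCCACG, which ends in the same letters, occurred in 12 of all genes (0.0444%), and 2 of these were Dnajb11 and Herpud1.
Herpud1, chr8:94386377-94386387, + strand: ATTGGgCCACG
Dnajb11, chr16:22857852-22857862, + strand: ATTGGcCCACG
The site of Herpud1 began 52 bases before the start and that of Dnajb11 began 7 bases after it. The unfolded protein response element TGACGTGG was found in none of the 21 windows and in 0.714% of all genes. For the Atf4 element only the string TGATGNAAT was searched, with its last base fixed as T. This string was in no window of the 8 genes of the Atf4 arm and in 1.08% of all genes. Forms of the element with another last base were not searched, so the Atf4 arm may hold such sites. A match is a description of letters, and no match says only that these letters are not in these windows.

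In AT2-like cells (1852 Cre and 1491 control cells) most of the chaperone arm lay moderately above the all-gene median, led by soluble chaperones and their cofactors. Of the 25 members with at least 50 UMIs, 20 were above the median, 4 were called higher (Sdf2l1, Manf, Hyou1 and Pdia4) and 1 was called lower (Herpud1). Over all 11313 genes 9.41% were called higher and 8.38% lower. The median relative log2 ratio of the arm was 0.20, and its summed level was 5162 CPM (5126 to 5198) in Cre and 3556 CPM (3525 to 3587) in control cells. The count depended on the scaling: with plain CPM ratios, 12 of 32 members of both arms were at least 1.5-fold higher and 0 lower, against 5 and 1 relative to the median. The median plain ratio of all genes was 1.18, and the share of all genes past the plain limit is not given here. Erythroid markers summed to 7014 CPM in Cre and 1435 CPM in control AT2-like cells, alveolar macrophage markers to 234 CPM in Cre and 51.7 CPM in control cells, and neutrophil markers to 112 CPM in Cre and 391 CPM in control cells; their part in the result was not tested.

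Among the sensors and transcription factors there was little difference by plain CPM in AT2-like cells for Ern1, Atf6 and Xbp1, and neither Eif2ak3 nor Creb3l1 was called. Ern1, the general Ire1 kinase and nuclease, had 15.9 CPM in Cre and 16.1 CPM in control cells, and Atf6, the membrane-bound factor, 28.3 CPM in Cre and 28.6 CPM in control cells. Set against the all-gene median log2 ratio of 0.24, both lay below it, within 1.5-fold. Xbp1, the factor spliced by Ire1, had 124 CPM in Cre and 118 CPM in control cells, a ratio of 1.05 (0.985 to 1.12). Its relative log2 ratio of -0.17 had the other sign, so no direction can be given. Ern2 had no UMI in either library: 0 of 1776 Cre and 0 of 1387 control cells thinned to 1000 UMIs held one, which allows shares of up to 0.169% and 0.216%.

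The main lumenal chaperones were higher by plain ratio and just inside the 1.5-fold limit relative to the median. Hspa5 (BiP), the Hsp70 of the lumen that holds the sensors inactive, had 724 CPM in Cre and 435 CPM in control cells, a ratio of 1.66 (1.61 to 1.72) and a relative log2 ratio of 0.49. Hsp90b1 (Grp94), the lumenal Hsp90, had 787 CPM in Cre and 485 CPM in control cells, 1.62-fold (1.58 to 1.67). Calr, a calcium-binding lectin chaperone, had 522 CPM in Cre and 311 CPM in control cells, 1.68-fold (1.62 to 1.74). All these genes lay on the Cre side, and their intervals did not reach 1.

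The chaperone-arm members called higher in AT2-like cells were Manf, Sdf2l1, Hyou1 and Pdia4. Manf, a secreted factor that binds BiP, had 332 CPM in Cre and 159 CPM in control cells, a ratio of 2.09 (1.99 to 2.20). Sdf2l1, a partner of lumenal J proteins, had 39.5 CPM in Cre and 17.2 CPM in control cells, 2.30-fold (1.98 to 2.68). Hyou1 (Grp170), a nucleotide exchange factor of BiP, had 41.5 CPM in Cre and 23.03 CPM in control cells, 1.80-fold (1.57 to 2.06), and was just past the limit. Pdia4, a disulfide isomerase, had 92.1 CPM in Cre and 45.9 CPM in control cells, 2.01-fold (1.83 to 2.20). Exons of Manf overlap exons of Rbm15b on the same strand in the GENCODE annotation of GRCm38, and how shared reads were counted is not given in the sources used here.

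The degradation branch of AT2-like cells was split. Herpud1, a membrane protein of the degradation complex, had 162 CPM in Cre and 208 CPM in control cells, a ratio of 0.780 (0.739 to 0.823) and a relative log2 ratio of -0.60. It was below control on either scale but reached the limit of 1.5-fold only after the median was taken off. Its partners went the other way: Syvn1 (Hrd1), the ubiquitin ligase, had 30.9 CPM in Cre and 18.7 CPM in control cells, 1.65-fold (1.42 to 1.93). Sel1l, the adaptor of Hrd1, was at a ratio of 1.35 (1.251 to 1.45), and Edem1, which draws misfolded glycoproteins into degradation, at 1.31 (1.15 to 1.49). Relative to the median these partners were within 1.5-fold.

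The Atf4 arm of AT2-like cells lay at the level of all genes, with Psat1 as its called member. Of 7 members with at least 50 UMIs 1 was higher and 0 lower, and the median relative log2 ratio was 0.06. Atf4 had 170 CPM in Cre and 144 CPM in control cells, a relative log2 ratio of 0.01. Ddit3 had 37.2 CPM in Cre and 30.2 CPM in control cells, a relative log2 ratio of 0.06, and its exons overlap those of AC144852.1 on the same strand and Mars on the other. Psat1, an enzyme of serine synthesis, had 6.80 CPM in Cre and 2.04 CPM in control cells, 3.34-fold (2.20 to 5.23), from 104 and 29 UMIs. Asns, the asparagine synthetase, was at a ratio of 1.11 (0.855 to 1.45), and Trib3, a pseudokinase induced by Atf4, at 0.922 (0.685 to 1.24). Chac1, which degrades glutathione, had 27 Cre and 8 control UMIs and was under the minimum.

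**Figure D1:**
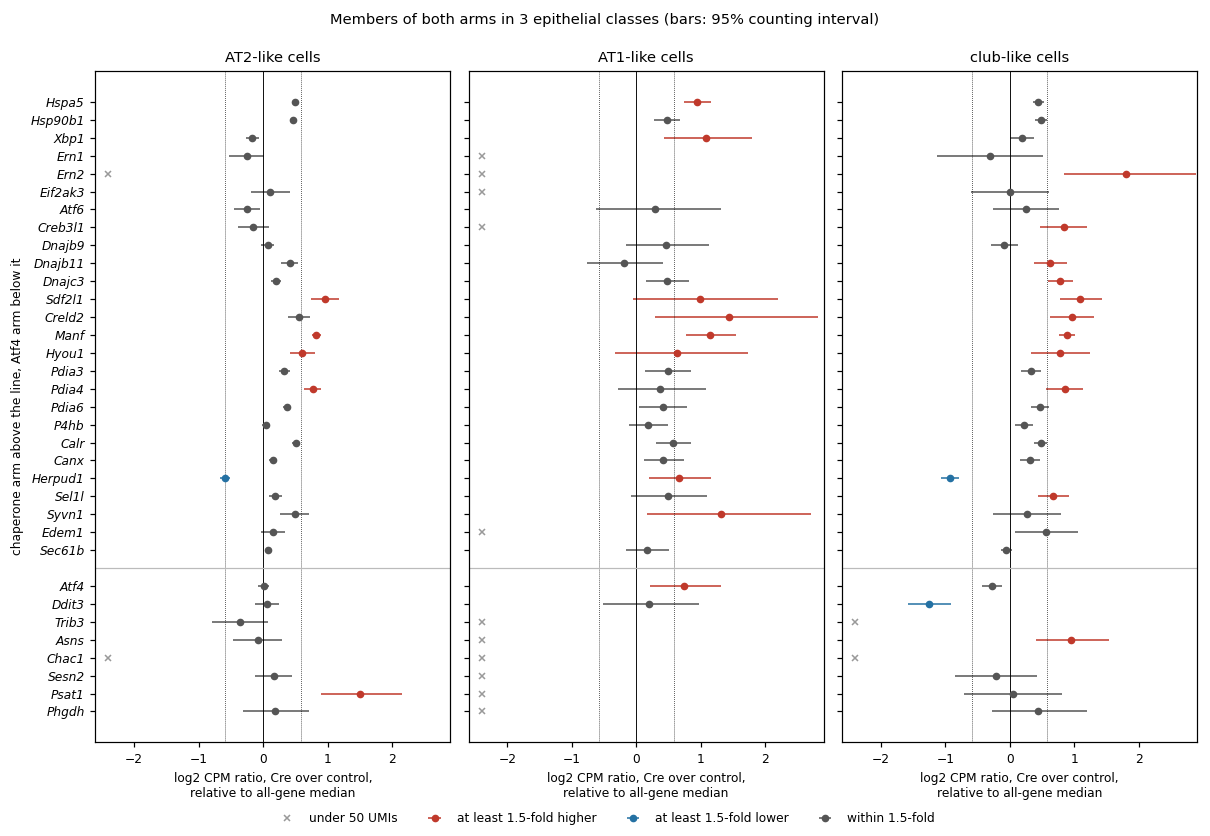
Relative log2 CPM ratio, Cre over control, of each member in AT2-like, AT1-like and club-like cells, with 95% counting intervals. The vertical lines mark 0 and 1.5-fold, red points are at least 1.5-fold higher, blue points at least 1.5-fold lower and crosses mark members under 50 UMIs. Manf and Sdf2l1 are red in all 3 panels, while Herpud1 is blue in AT2-like and club-like cells and red in AT1-like cells.

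AT1-like cells (321 Cre and 127 control cells) gave ratios on the Cre side for most chaperones from far fewer UMIs, at medians of 1007 UMIs a cell in Cre and 994 in control. Of 21 members of the chaperone arm over the minimum, 8 were called higher (Hspa5, Xbp1, Sdf2l1, Creld2, Manf, Hyou1, Herpud1 and Syvn1) and 0 lower, against 12.9% higher and 10.3% lower of all 3967 genes. The median relative log2 ratio was 0.49, and the arm summed to 6880 CPM (6710 to 7054) in Cre and 4377 CPM (4162 to 4601) in control cells. Hspa5 had 1250 CPM in Cre and 612 CPM in control cells, 2.04-fold (1.76 to 2.37). Manf had 447 CPM in Cre and 190 CPM in control cells, 2.36-fold (1.82 to 3.1). Xbp1 had 146 CPM in Cre and 65.1 CPM in control cells, 2.25-fold (1.44 to 3.67). These intervals lay above 1.5-fold except that of Xbp1, whose lower end was 1.44.

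Several calls in AT1-like cells rested on small counts. Creld2, an isomerase-like partner of Manf, had 51 UMIs in Cre and 7 in control cells, 2.88-fold (1.30 to 7.51). The interval of Hyou1, at a ratio of 1.65 (0.842 to 3.53), included 1. Herpud1 had 225 CPM in Cre and 133 CPM in control cells, 1.69-fold (1.22 to 2.37), which is the opposite direction from AT2-like cells. Only Atf4 and Ddit3 of the Atf4 arm passed the minimum: Atf4 was called higher, with 177 CPM in Cre and 99.1 CPM in control cells and a ratio of 1.78 (1.23 to 2.65), and Ddit3 was at 1.22 (0.745 to 2.07). Markers of AT2-like cells summed to 6063 CPM in Cre and 2811 CPM in control AT1-like cells, with Sftpc at 3.03% and 0.995% of its AT2-like level. The 10 neutrophil markers summed to 82.7 CPM in Cre and 1484 CPM in control AT1-like cells. Their part in the result was not tested.

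Club-like cells (260 Cre and 209 control cells) had a higher summed chaperone arm in Cre, and Ern2, the mucous isoform of Ire1, passed the minimum in no other class. The sum was 3441 CPM (3394 to 3488) in Cre and 1747 CPM (1716 to 1778) in control cells. All 26 members passed the minimum, 10 were called higher (Ern2, Creb3l1, Dnajb11, Dnajc3, Sdf2l1, Creld2, Manf, Hyou1, Pdia4 and Sel1l) and 1 lower (Herpud1), against 10.9% higher and 10.2% lower of all 8408 genes. The median relative log2 ratio was 0.47. With plain CPM ratios 26 of 32 members of both arms were at least 1.5-fold higher and 1 lower, against 11 and 2 relative to the median. The median plain ratio of all genes was itself 1.556, so most genes of these cells passed the plain limit too. Erythroid markers summed to 1990 CPM in Cre and 96.8 CPM in control club-like cells, and markers of Spp1 Arg1 macrophages to 85.8 CPM in Cre and 2.42 CPM in control cells; their part in the result was not tested.

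Ern2, the Ire1 form of mucus-producing cells, had 51 UMIs in Cre and 11 in control club-like cells, 5.42-fold (2.79 to 11.5). A UMI of Ern2 was present in 13.8% of Cre and 4.78% of control club-like cells, at medians of 23623 and 38387 UMIs, and in 0% of AT2-like cells of both libraries. After thinning to 1000 UMIs, 1 of 246 Cre cells (0.407%) and 0 of 201 control cells held one. A count of 0 there allows up to 1.49%, so a difference was not detectable at that depth. Creb3l1 (Oasis), a membrane-bound factor of secretory cells, had 36.0 CPM in Cre and 12.96 CPM in control cells, 2.78-fold (2.16 to 3.59).

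Most chaperones of club-like cells were on the Cre side, as in AT2-like cells, with larger plain ratios. The all-gene median ratio was larger too, at 1.556 in club-like and 1.18 in AT2-like cells, so plain ratios do not compare the 2 classes. Manf had 300.3 CPM in Cre and 105 CPM in control cells, 2.87-fold (2.64 to 3.13). Sdf2l1 had 50.6 CPM in Cre and 15.2 CPM in control cells, 3.32-fold (2.66 to 4.18). Dnajc3 (p58IPK), a J protein that also inhibits Perk, had 122 CPM in Cre and 45.6 CPM in control cells, 2.68-fold (2.35 to 3.07). Hspa5, with 470.4 CPM in Cre and 222 CPM in control cells, was 2.12-fold higher (1.99 to 2.25), within 1.5-fold of the all-gene median. Herpud1 was the exception, with 125 CPM in Cre and 152 CPM in control cells, a ratio of 0.820 (0.746 to 0.902) and a relative log2 ratio of -0.92.

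The Atf4 arm of club-like cells held calls in both directions. Of 6 members over the minimum, Asns was called higher and Ddit3 lower, and the median relative log2 ratio was -0.09. Asns had 16.3 CPM in Cre and 5.41 CPM in control cells, 3.02-fold (2.05 to 4.51). Ddit3 had 19.8 CPM in Cre and 30.2 CPM in control cells, a ratio of 0.657 (0.520 to 0.826). Atf4 had 128 CPM in Cre and 99.8 CPM in control cells, 1.29-fold (1.16 to 1.43), which was below the all-gene median by 0.27 on the log2 scale, so its direction depends on the scaling.

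Club-like cells were also split at 5 UMIs of mucin genes, a limit that matches neither mucin content nor depth between the libraries. Cells with at least 5 UMIs of mucin genes numbered 152 of the Cre and 46 of the control cells. Their chaperone arm summed to 3686 CPM in Cre and 2149 CPM in control cells, with 6 of 24 members called higher and 1 lower (13.7% higher and 10.6% lower of all genes). In the cells with fewer mucin UMIs the sums were 2891 CPM in Cre and 1593 CPM in control cells, with 4 of 23 members higher and 1 lower (10.0% and 10.4% of all genes). Within the Cre library, cells with mucin UMIs had 10 of 25 members higher and 0 lower than those with fewer (11.2% and 8.31% of all genes), and within the control library 6 of 23 higher and 0 lower (11.2% and 13.2%). Ern2 followed the mucin split: 50 of its 51 Cre UMIs and all 11 control UMIs came from cells with mucin UMIs. Creb3l1 did so too, with 43.8 and 18.4 CPM in Cre cells above and under the mucin limit, and 23.7 and 8.86 CPM in the corresponding control cells. A cell with more UMIs passes the mucin limit more easily. Median depths were 27116 UMIs in Cre and 46336 UMIs in control cells above the limit, and 10339 UMIs in Cre and 33374 UMIs in control cells under it.

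Cre AT2-like cells were split by the transcription factor Sox9, whose UMIs numbered 2901 in Cre and 4 in control AT2-like cells. The 856 Cre cells with a Sox9 UMI had 5419 CPM (5368 to 5470) of the chaperone arm and the 996 cells without had 4888 CPM (4838 to 4938). Both were above the 3556 CPM of control AT2-like cells. No member of either arm was called between the Cre subsets, against 3.57% higher and 3.48% lower of all 10234 genes, and the Atf4 arm stood at 240.4 CPM with and 263 CPM without a Sox9 UMI. The cells with a Sox9 UMI were deeper, at a median of 8586 against 7466 UMIs.

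Within single cells the plain difference, not set against the all-gene median, was a shift of the whole distribution in AT2-like cells. After every cell was thinned to 1000 UMIs, which left out 76 Cre and 104 control AT2-like cells, the chaperone arm averaged 5.05 UMIs in Cre and 3.47 UMIs in control cells. The 10th percentile was 2 UMIs in Cre and 1 in control cells, the median 4 and 3, and the 90th percentile 9 and 6. Cells without a chaperone-arm UMI made up 2.48% of Cre and 5.26% of control cells. In club-like cells the mean was 3.61 UMIs in Cre and 1.61 in control cells, and in AT1-like cells, of which 159 Cre and 64 control cells were too shallow, 6.31 and 4.32. A UMI of Hspa5 was left in 44.0% (41.7 to 46.4) of Cre and 31.9% (29.5 to 34.5) of control AT2-like cells after thinning. Without thinning it was in 87.3% of Cre and 82.5% of control cells, at medians of 7993 and 10241 UMIs. B-like cells, in which Hspa5 was found in 25.6% of Cre and 24.3% of control cells thinned, differed less. Thinned counts include the shift shared by all genes of a class. The all-gene median ratio was 1.18 in AT2-like, 1.064 in AT1-like, 1.556 in club-like and 1.157 in B-like cells.

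**Figure D2:**
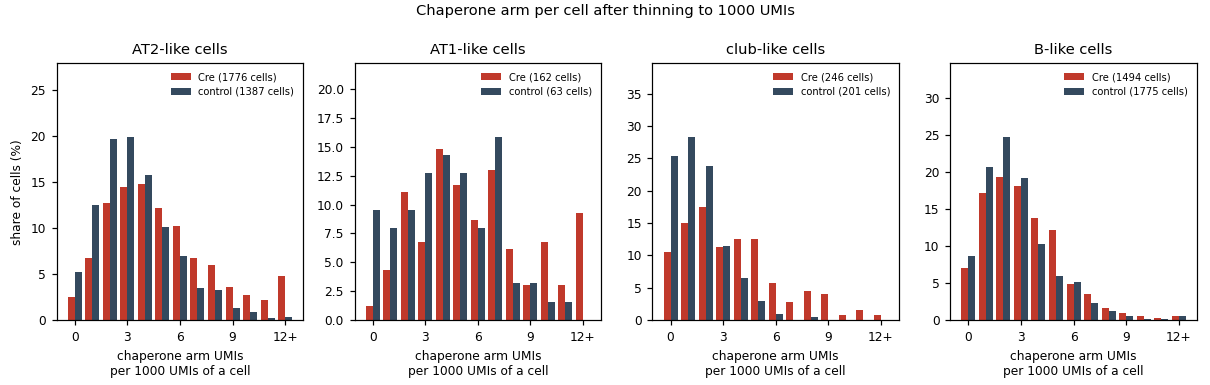
Share of cells (%) by the number of chaperone-arm UMIs left after thinning each cell to 1000 UMIs, Cre in red and control in dark blue; the last bin holds 12 or more. The Cre distributions of AT2-like and club-like cells lie to the right of control, with means of 5.05 and 3.47 UMIs in AT2-like and 3.61 and 1.61 UMIs in club-like cells, while those of B-like cells lie closer together, at 3.18 and 2.74 UMIs. The counts are not set against the all-gene median of the class.

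The higher chaperone arm was not particular to the epithelium, the lineage of the Cre driver gene. It was as large or larger in fibroblasts, mesothelial cells and alveolar macrophages, and small in lymphocytes. Over 23 classes, erythroid-like cells set aside, the median relative log2 ratio of the arm was above 0 in 21 and ranged between -0.13 and 0.63. Of 501 member and class pairs over the minimum, 112 (22.4%) were called higher and 8 (1.6%) lower, against 8.66% and 8.17% of all gene and class pairs. All these pairs come from the same pair of libraries and are not independent of each other.

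**Figure D3:**
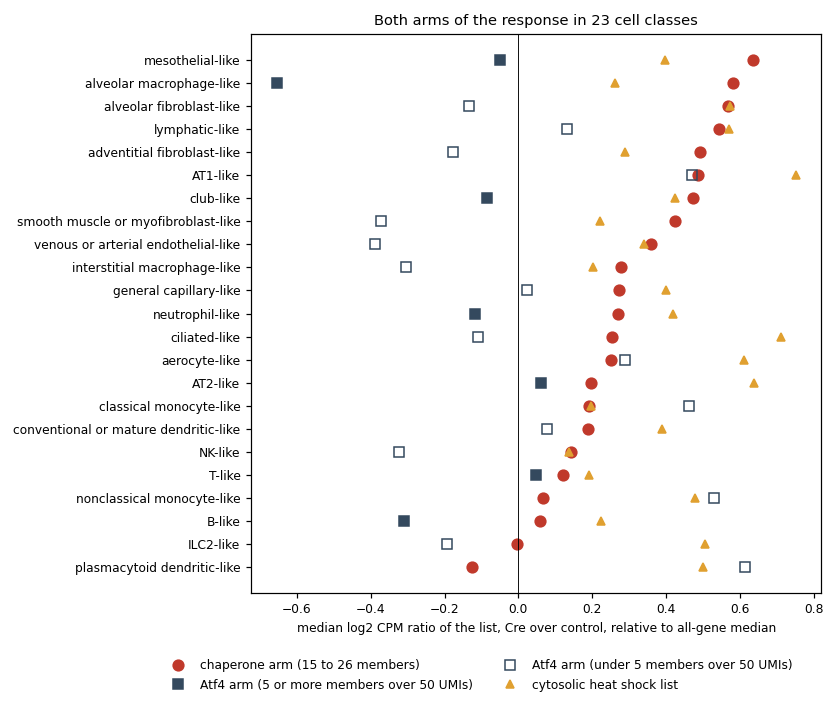
Median relative log2 CPM ratio, Cre over control, of the chaperone arm (red circles), the Atf4 arm (squares, open where under 5 members passed 50 UMIs) and a list of cytosolic heat shock genes (triangles) in 23 classes. The chaperone arm runs between 0.63 in mesothelial-like and -0.13 in plasmacytoid dendritic-like cells, while the squares lie on both sides of 0.

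Mesothelial-like cells, the covering layer of the lung, had the highest median, 0.63, with 13 of 25 members higher and 0 lower, against 5.19% higher and 5.35% lower of all genes. Creld2 had 123 CPM in Cre and 42.4 CPM in control cells, 2.89-fold (2.32 to 3.61), and Manf 872 CPM in Cre and 364 CPM in control cells, 2.39-fold (2.22 to 2.58). Herpud1 had 302 CPM in Cre and 140 CPM in control cells, 2.16-fold (1.91 to 2.45). These cells were deep, at medians of 10636 and 12514 UMIs, and their all-gene median log2 ratio was 0.03, so the scaling had little weight here.

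Alveolar fibroblast-like cells had 12 of 25 members higher and 0 lower (11.3% and 9.40% of all genes), with a median of 0.57. Hspa5 had 2366 CPM in Cre and 1100 CPM in control cells, 2.15-fold (2.05 to 2.26), Manf 831 CPM in Cre and 330 CPM in control cells, 2.52-fold (2.31 to 2.75), and Creld2 92.1 CPM in Cre and 31.9 CPM in control cells, 2.88-fold (2.20 to 3.84). Their median depth was 3146 UMIs in Cre and 1354 UMIs in control cells. In adventitial fibroblast-like cells 8 of 25 were higher and 0 lower (8.22% and 8.24%), led by Edem1 with 76.9 CPM in Cre and 24.5 CPM in control cells, 3.14-fold (2.31 to 4.36). Smooth muscle or myofibroblast-like cells had 6 of 17 higher and 0 lower (12.3% and 10.6%).

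Alveolar macrophage-like cells had 12 of 25 members higher and 0 lower (7.94% and 7.54%), with a median of 0.58 and cofactors of BiP in the lead. Sdf2l1 had 160.2 CPM in Cre and 57.6 CPM in control cells, 2.78-fold (2.45 to 3.16), and Manf 429 CPM in Cre and 197 CPM in control cells, 2.18-fold (2.03 to 2.34). Calr had 967 CPM in Cre and 547 CPM in control cells, 1.77-fold (1.69 to 1.84), and this was the only class of the 24 in which Calr was called. Interstitial macrophage-like cells had 5 of 22 higher and 0 lower (8.57% and 8.41%), led by Pdia4 with 121 CPM in Cre and 57.5 CPM in control cells, 2.1-fold (1.65 to 2.70). The 340 Spp1 Arg1 macrophage-like cells occurred in the Cre library alone and have no comparison. Their chaperone arm stood at 9985 CPM (9879 to 10092), with Pdia4 at 491 CPM (467 to 515), and Hsp90b1 at 1737 CPM (1693 to 1782).

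Endothelium was intermediate. Lymphatic-like cells had 7 of 16 members higher and 0 lower (10.8% and 8.97%), led by Manf with 492 CPM in Cre and 197 CPM in control cells, 2.50-fold (1.94 to 3.26), and by Pdia6, a disulfide isomerase, with 396 CPM in Cre and 164 CPM in control cells, 2.42-fold (1.83 to 3.25). Venous or arterial endothelial-like cells had 5 of 18 higher and 0 lower (7.37% and 7.39%). Aerocyte-like cells had 2 of 18 higher and 0 lower (8.35% and 8.98%), and general capillary-like cells had 1 of 21 higher, Herpud1, and 1 lower, Dnajb9, a J protein of degradation (6.56% and 6.74%). Ciliated-like cells of the airway had 2 of 19 higher, Manf and Sdf2l1, and 1 lower, Dnajb9 (7.68% and 8.34%). In aerocyte-like, general capillary-like and ciliated-like cells the share called was near that of all genes.

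Lymphocytes and monocytes showed few calls. B-like cells had 1 of 23 members higher, Hyou1, and 0 lower (5.53% and 6.05%), T-like cells 1 of 24 higher, Edem1, and 0 lower (6.66% and 6.92%), and NK-like cells 0 of 24 in either direction (6.67% and 7.31%). Group 2 innate lymphoid (ILC2)-like cells had 2 of 22 higher and 0 lower (11.2% and 9.82%), and nonclassical monocyte-like cells 0 of 23 (6.71% and 6.59%). Classical monocyte-like cells had 2 of 24 higher and 0 lower (8.42% and 7.15%). Neutrophil-like cells had 4 of 22 higher, Eif2ak3, Pdia4, Pdia6 and Canx, and 1 lower, Atf6 (9.21% and 9.60%). Conventional or mature dendritic-like cells, with 53 control cells, had 6 of 21 higher and 2 lower (16.0% and 13.3%), and plasmacytoid dendritic-like cells 1 of 15 higher and 1 lower (10.9% and 7.62%). Hspa5 in B-like cells had 318 CPM in Cre and 269 CPM in control cells, a relative log2 ratio of 0.03, against 1.05 in alveolar fibroblast-like cells; the difference between classes was not tested. When B-like cells were taken from clusters, the median was 0.35 against 0.06 from the gate; the cluster set held 20 Cre and 4 control cells that the gate named plasma-like.

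Erythroid-like cells (320 Cre and 65 control cells) stood apart, since 26.7% of all genes were called higher and 24.7% lower there. The all-gene median log2 ratio was 0.93. They had 11 of 14 chaperone-arm members higher and 0 lower, and no reading is drawn from them.

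Seen by gene, the calls were spread unevenly over the arm, here counted over all 24 classes, erythroid-like cells included. Pdia4 was called higher in 13 of 23 classes where it passed the minimum, Manf in 12 of 24, Creld2 in 10 of 20, Hyou1 in 10 of 15 and Sdf2l1 in 7 of 17, and none of them was called lower in any class. Hspa5 was higher in 8 of 24 and Hsp90b1 in 6 of 24. Of the sensors, Ern1 was called in 1 of 12 classes, Eif2ak3 in 2 of 11, and Atf6 was higher in 1 and lower in 2 of 20. Over all genes in the 23 classes without erythroid-like cells, 8.66% of gene and class pairs were called higher and 8.17% lower. P4hb, a disulfide isomerase that also serves prolyl hydroxylase, and Sec61b, a subunit of the translocation channel, were called in erythroid-like cells alone. Members with an ERSE site and those without both had medians above 0 in AT2-like cells, at 0.47 over 8 members and 0.11 over 13, and in alveolar macrophage-like cells, at 0.90 over 8 and 0.43 over 13. In club-like cells these medians were 0.47 and 0.21. Manf, Hyou1, Creb3l1, Ern2 and Atf6 had no promoter window and are in neither group. Of these, Manf and Hyou1 were called higher in AT2-like cells, and all but Atf6 in club-like cells. The medians with and without a site therefore leave out some of the members called higher. In AT2-like cells all 8 members with a site lay above the all-gene median, as did 10 of the 13 without. None of the 8 was called there, while Sdf2l1 and Pdia4, called higher, and Herpud1, called lower, were among the 13. Dnajb11 and Herpud1, which hold ERSE-II, are counted as without a site. Of the other 29 genes with the site, 7 passed the minimum in AT2-like cells and 0 of them was called.

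**Figure D4:**
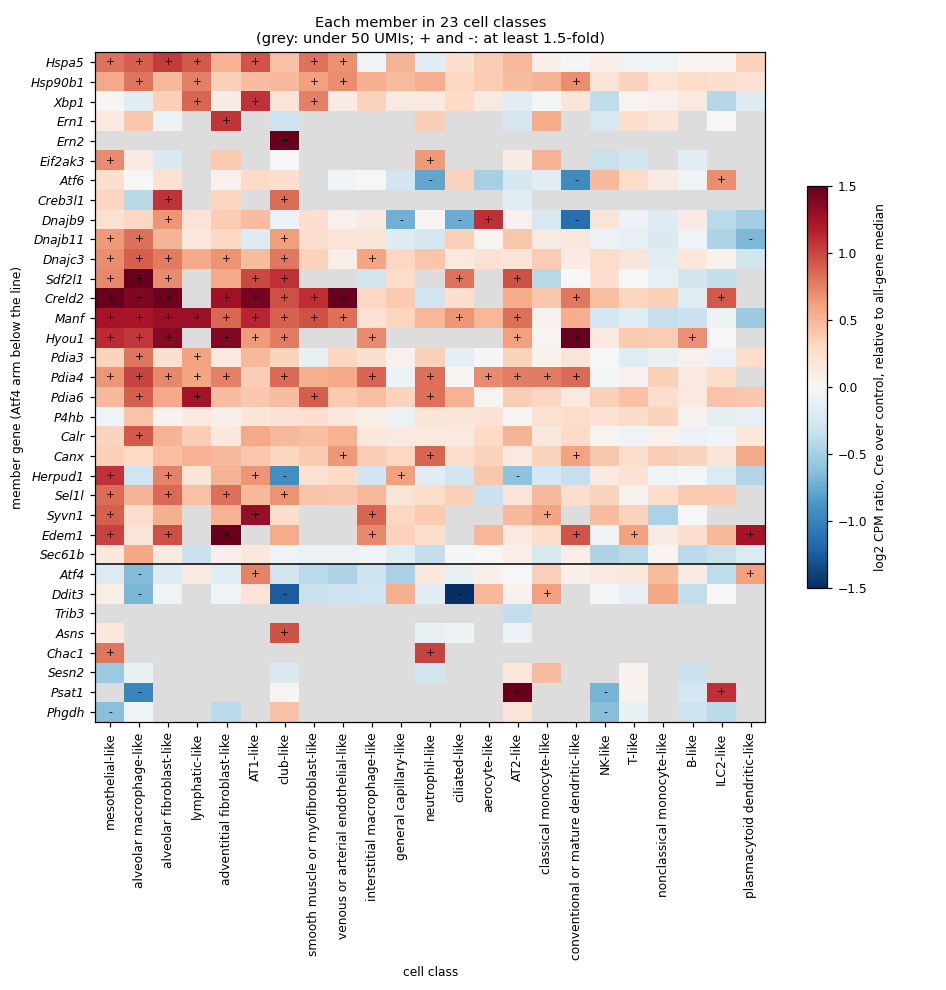
Relative log2 CPM ratio, Cre over control, of each member (rows; Atf4 arm below the line) in 23 classes (columns, in falling order of the chaperone-arm median). Grey fields are under 50 UMIs, and plus and minus signs mark at least 1.5-fold. The rows of Creld2, Manf, Hyou1 and Pdia4 carry plus signs across most of the left columns, the row of Herpud1 holds both signs, and the rows of the Atf4 arm hold as many minus as plus signs.

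Herpud1, Dnajb9, Dnajb11 and Atf6 were called in both directions, and for Herpud1 and Dnajb9 an interval was clear of the median on each side. Herpud1 was called higher in AT1-like, general capillary-like, alveolar fibroblast-like and mesothelial-like cells and lower in AT2-like and club-like cells. In alveolar fibroblast-like cells it had 247 CPM in Cre and 142 CPM in control cells, 1.75-fold (1.53 to 2.0). In alveolar macrophage-like cells it was at a ratio of 0.761 (0.697 to 0.831), with a relative log2 ratio of -0.29, while Hspa5 was at 1.73 (1.67 to 1.81) in the same cells. Dnajb9 was higher in aerocyte-like cells, with 137 CPM in Cre and 61.5 CPM in control cells, 2.22-fold (1.46 to 3.42). It was lower in conventional or mature dendritic-like cells, with 38.9 CPM in Cre and 71.3 CPM in control cells, a ratio of 0.545 (0.347 to 0.865).

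The Atf4 arm had no common direction. Over the same 23 classes its median relative log2 ratio was above 0 in 10 and below 0 in 13, and of 75 member and class pairs over the minimum 8 (10.7%) were called higher and 8 (10.7%) lower, against 8.66% and 8.17% of all genes. In the 7 classes with at least 5 members over the minimum, the median was above 0 in 2. Alveolar macrophage-like cells had the lowest value, -0.65, with 0 of 5 members higher and 3 lower. There Atf4 had 126 CPM in Cre and 213 CPM in control cells, a ratio of 0.593 (0.546 to 0.644), and Ddit3 had 18.1 CPM in Cre and 31.3 CPM in control cells, 0.578 (0.463 to 0.722). Psat1 was at 0.473 (0.333 to 0.670). In the same cells immediate early genes of tissue dissociation had 2 of 14 members higher and 7 lower (7.94% and 7.54% of all genes), with a median of -0.59; their part in the result was not tested.

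Ddit3 was lower in 3 classes, club-like, ciliated-like and alveolar macrophage-like cells, and higher in classical monocyte-like cells. In ciliated-like cells it had 20.9 CPM in Cre and 62.8 CPM in control cells, a ratio of 0.333 (0.177 to 0.597), from 16 and 48 UMIs. In classical monocyte-like cells it had 44.2 CPM in Cre and 25.2 CPM in control cells, 1.76-fold (1.26 to 2.45). Chac1 passed the minimum in 2 classes and was higher in both: neutrophil-like cells had 20.2 CPM in Cre and 7.91 CPM in control cells, 2.56-fold (1.63 to 3.99), and mesothelial-like cells 14.04 CPM in Cre and 7.91 CPM in control cells, 1.78-fold (1.004 to 3.2). Psat1 was also higher in ILC2-like cells, at 2.47 (1.21 to 5.70). In NK-like cells Psat1 and Phgdh, both enzymes of serine synthesis, were called lower, at 0.682 (0.409 to 1.12) and 0.713 (0.444 to 1.14), with intervals that include 1.

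Among the classes with at least 50 cells, the same 3 had the highest chaperone-arm level in both libraries. In Cre and control this arm was highest in adventitial fibroblast-like cells, at 11393 CPM in Cre and 7561 CPM in control cells, followed by mesothelial-like cells (10670 CPM in Cre and 7069 CPM in control cells) and alveolar fibroblast-like cells (10089 CPM in Cre and 6143 CPM in control cells). It was lowest in erythroid-like cells, followed by neutrophil-like cells at 1951 CPM in Cre and 1480 CPM in control cells. AT2-like cells ranked 15th of 26 classes in Cre and 16th of 24 in control, and club-like cells 20th and 22nd. These levels are shares of all UMIs of a class. The large share of Sftpc in AT2-like and of Scgb1a1 in club-like cells lowers that of every other gene there. The ranks therefore do not give the number of chaperone transcripts per cell. The order of the Atf4 arm differed between the libraries, with alveolar macrophage-like cells 17th in Cre and 8th in control. For the chaperone arm, the intervals of neighbours overlapped in many places of the order, as between AT2-like (3525 to 3587 CPM) and classical monocyte-like cells (3584 to 3722 CPM) of the control library. In a pooled sum, fewer transcripts per cell and fewer cells with them cannot be told apart.

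**Figure D5:**
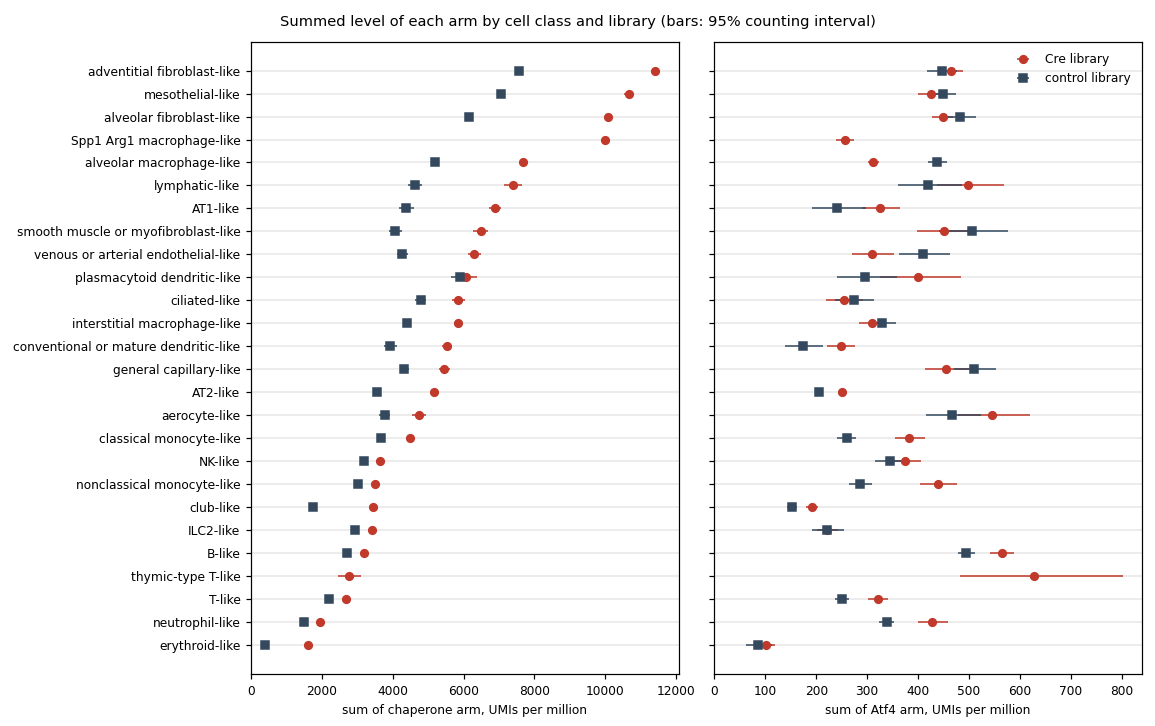
Summed CPM of the chaperone arm (left) and the Atf4 arm (right) in each class, Cre as red circles and control as dark squares, with 95% counting intervals. CPM are shares of a class's UMIs, lowered for other genes by Sftpc in AT2-like and by Scgb1a1 in club-like cells. On the left the red circle is to the right of the square in every class with both libraries, from 11393 against 7561 CPM in adventitial fibroblast-like cells down to 1601 against 383 CPM in erythroid-like cells; on the right the order of the symbols differs between classes.

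Among the classes with at least 50 cells in a library, single members had their own places of high expression. Xbp1, Herpud1 and Sec61b were highest in plasmacytoid dendritic-like cells in both libraries, Xbp1 at 437 CPM in Cre and 489 CPM in control cells. Ern1 was highest in ILC2-like cells, at 94.5 CPM in Cre and 82.0 CPM in control cells, and Eif2ak3 in B-like cells, at 98.7 CPM in Cre and 95.4 CPM in control cells. Creb3l1, a collagen-secretion factor of mesenchyme, was highest in adventitial fibroblast-like cells, at 148 CPM in Cre and 106 CPM in control cells. Dnajb9 and Phgdh were highest in alveolar macrophage-like cells, Phgdh at 140.2 CPM in Cre and 157 CPM in control cells, and Sesn2, a stress-induced inhibitor of mTORC1, in neutrophil-like cells, at 99.1 CPM in Cre and 94.2 CPM in control cells. Trib3 was highest in lymphatic-like cells, at 30.5 CPM (16.7 to 51.1) in Cre and 35.5 CPM (19.9 to 58.6) in control cells, from only 14 and 15 UMIs. Edem1 reached 378 CPM (268 to 519) in the 51 thymic-type T-like cells of the Cre library, from 38 UMIs.

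Across classes several chaperones ranked with Hspa5 in both libraries, while the value for Atf4 differed between them. Over 26 classes in Cre and 24 in control, Spearman's rho with Hspa5 was 0.93 and 0.80 for Pdia6, 0.92 and 0.87 for Calr, and 0.91 and 0.86 for Manf, and it was at least 0.8 for 12 of 25 chaperone-arm members in Cre and 7 of 25 in control. For Sec61b it was 0.18 and 0.14, for Edem1 0.07 and 0.02, and for Atf4 0.06 in Cre and 0.51 in control. How many of all genes ranked with Hspa5 to this degree was not counted, so no shared regulation is read from these values. The classes of a library share its free RNA, and these values are descriptions.

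Further genes of the pathway lay near the all-gene median in AT2-like cells. Of a list of 53 further genes of translocation, folding and export present in the files, 1 was higher (Atp2a2, the calcium pump of the reticulum) and 1 lower (Fkbp11) in AT2-like cells, with a median of 0.00, against 9.41% higher and 8.38% lower of all genes. Atp2a2 had 316 CPM in Cre and 173 CPM in control AT2-like cells, 1.83-fold (1.74 to 1.92), and Fkbp11, a peptidyl-prolyl isomerase, 10.3 CPM in Cre and 28.6 CPM in control cells, a ratio of 0.359 (0.296 to 0.432). In club-like cells 7 of 51 were higher and 0 lower (10.9% and 10.2% of all genes), with a median of 0.21, among them Atp2a2 with 178 CPM in Cre and 35.7 CPM in control cells, 4.99-fold (4.35 to 5.75). In alveolar macrophage-like cells 15 of 50 were higher and 0 lower (7.94% and 7.54% of all genes), with a median of 0.45. In a list of 10 ER regulators of secretory cells, 5 of 7 over the minimum were higher in club-like cells, against 10.9% of all genes. Agr2, a disulfide isomerase needed for mucins, had 547 CPM in Cre and 54.1 CPM in control club-like cells, 10.1-fold (9.09 to 11.3).

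Further genes of the Atf4 response were partly higher in AT2-like cells. Of 30 over the minimum, 7 were higher and 1 lower (9.41% and 8.38% of all genes), with a median of 0.12. Mthfd2, a mitochondrial folate enzyme, had 9.81 CPM in Cre and 2.81 CPM in control cells, 3.49-fold (2.45 to 5.09). Slc7a1 and Slc3a2, amino acid transporter proteins, were at 2.77 (2.08 to 3.72) and 1.98 (1.85 to 2.1). Nupr1, a stress-induced chromatin protein, went the other way, with 49.4 CPM in Cre and 472 CPM in control AT2-like cells, a ratio of 0.105 (0.0969 to 0.113). Of 12 tRNA synthetases of the Atf4 response, 1 was higher (Aars) and 0 lower, beside the same shares of all genes. In club-like cells 4 of 26 of the further genes were higher and 3 lower (10.9% and 10.2% of all genes), with a median of -0.02, and over the 23 classes the list's median was above 0 in 8.

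Genes of the cytosolic heat shock response, which lies outside the reticulum, were also higher. Their median relative log2 ratio was above 0 in all 23 classes, between 0.14 in NK-like and 0.75 in AT1-like cells. In AT2-like cells 8 of 14 were higher and 0 lower, against 9.41% and 8.38% of all genes. Hsph1, an Hsp110, had 51.9 CPM in Cre and 8.78 CPM in control cells, 5.92-fold (4.90 to 7.21), and Hspa1b, an inducible Hsp70, 121 CPM in Cre and 25.6 CPM in control cells, 4.70-fold (4.20 to 5.28). The list of immediate early genes had no common direction, with a median above 0 in 8 of 23 classes and between -1.16 and 0.41. When the cells with any UMI of Hspa1a, Hspa1b or Hsph1 were left out, the median of the chaperone arm was 0.29 in AT2-like cells against 0.20 with them, 0.35 against 0.49 in AT1-like cells and 0.61 against 0.47 in club-like cells. It was 0.73 against 0.57 in alveolar fibroblast-like, 0.66 against 0.58 in alveolar macrophage-like and 0.41 against 0.63 in mesothelial-like cells, of which 29 Cre and 37 control cells were left. The cells left were 750 Cre and 1079 control AT2-like, 210 Cre and 108 control AT1-like, and 74 Cre and 102 control club-like cells. In these 3 classes a larger part of the Cre than of the control cells was left out. Deep cells are left out more often by this choice, and other sources of the heat shock transcripts were not tested.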

How the data were processed

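Per the labels' protocols, total lung cells were captured with Chromium 3' v3 chemistry. The authors deposited whole-number UMI counts for each gene in each barcode, without normalization. Cell Ranger 3.1.0, STAR and mm10 are named in the submitters' processing notes; the matrix header gives software version 3.0.0. The annotation, the use of strand and any filter on cells were not found in these sources. Of 31053 identifiers, 30934 matched GENCODE for GRCm38.

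Cells with at least 200 genes, at least 500 UMIs and at most 20% mitochondrial UMIs were kept, and Scrublet doublets (scanpy 1.11.5, expected rate 0.06) were removed: 454 Cre and 420 control barcodes. Each cell was scored on the markers of 29 classes, as the mean scaled log level of each class. It took the leading class with at least 3 markers detected, a score of at least 0.15 and a lead of at least 0.05; these values were set after seeing the data. AT1-like, capillary-like and alveolar fibroblast-like cells were shallow. The 24 classes with at least 50 cells in each library were compared, and 26 described. Free RNA was not subtracted; Sftpc outside AT2-like cells stood at no more than 3.03% of its AT2-like level. Leiden clustering (leidenalg 0.10.2, resolution 1.0, 2000 variable genes, 30 components, 15 neighbours, 36 clusters) served as an alternative.

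UMIs were summed per class and library. Ratios of CPM carry exact conditional 95% intervals (scipy 1.17.1), shares Clopper-Pearson intervals, and sums exact Poisson intervals, all for counting error only, so depth sets their width. A count of 0 allows up to 3 counts. The calculation was tested on simulated data. Every member with at least 50 UMIs could be named in AT2-like, AT1-like and club-like cells, and in other classes and lists those past 1.5-fold ranked by the distance of the nearer interval bound from 1, at most 4 each way; Calr in alveolar macrophage-like cells, Herpud1 in alveolar fibroblast-like and alveolar macrophage-like cells, and Hspa5 in B-like and alveolar macrophage-like cells, were named after their values were seen. The members, lists and classes were chosen with earlier results of these data known.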

Additional observations from a re-analysis of the deposited data

Results flagged for a closer look

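For some members the difference between the Cre and control libraries ran in opposite directions in 2 classes. Each was past 1.5-fold relative to the all-gene median, with an interval clear of it. The difference between the classes was not tested, and the classes picked are those with the most distant interval bound. Herpud1 had a relative CPM ratio of 2.12 (1.87 to 2.40) in mesothelial-like and 0.527 (0.480 to 0.579) in club-like cells. For Dnajb9 it was 2.14 (1.41 to 3.30) in aerocyte-like and 0.457 (0.291 to 0.725) in conventional or mature dendritic-like cells. Atf4 stood at 1.67 (1.16 to 2.49) in AT1-like and 0.636 (0.585 to 0.691) in alveolar macrophage-like cells. Ddit3 was at 1.54 (1.10 to 2.14) in classical monocyte-like and 0.422 (0.334 to 0.531) in club-like cells. Psat1 stood at 2.83 (1.86 to 4.43) in AT2-like and 0.507 (0.357 to 0.718) in alveolar macrophage-like cells.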

How the results depend on the processing

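The calls depended most on the scaling and on the fold required. Shares of all genes under these alternatives are not given here, so the counts below describe the members only. Of the 32 members tested in AT2-like cells, 5 were higher and 1 lower. Plain ratios made this 12 and 0, thinned cells left 3 higher, a pseudocount of 5 left 3 and 0, a looser fold limit gave 13 and 2, and a limit of 2-fold 1 and 0. No member was lower with doublets kept, with cells weighted equally or with a minimum of 1 UMI (0 each). In AT1-like cells (9 higher, 0 lower) the number higher was 14 with at most 10% mitochondrial UMIs, 4 with a minimum of 200 UMIs, 16 with 1 UMI, 18 at the looser limit, 4 at 2-fold and 4 in cells without Hspa1a, Hspa1b or Hsph1, an alternative chosen after seeing the data; 2 were lower with cells weighted equally, 1 with a minimum of 20 UMIs, 3 with 1 UMI and 1 without the heat shock UMIs. The AT1-like chaperone median of 0.49 was 1.01 in thinned cells and 0.35 without the heat shock UMIs, and the Atf4-arm median of 0.47, over 2 members, was 0.17 at a minimum of 20 UMIs and -0.24 at 1 UMI. In club-like cells the chaperone median of 0.47 was 0.92 thinned and 1.11 with plain ratios. The 11 higher and 2 lower members there were 6 and 0 thinned, 26 and 1 with plain ratios and 2 and 1 at 2-fold, and 18 were higher at the looser limit. Asns in club-like cells reversed to -0.027 with cells weighted equally, and the classical monocyte-like chaperone median to -0.018 without the heat shock UMIs. The cause was not tested for any of these except where fewer UMIs or another limit set the count. Of 1603 values recomputed over these alternatives, Leiden clusters and a stricter gate, 1377 stayed within their interval or within 1.5 times the count, 224 moved and 2 reversed. A reversal is counted here only for a member past 1.5-fold, or for a median whose interval over members was clear of 0. Of the 1519 recomputed values that carry a sign, 75 changed it, among them 49 of 564 arm medians: the plasmacytoid dendritic-like chaperone median of -0.13 was 0.32 without the heat shock UMIs. AT1-like cells and the Atf4 arm rest on few UMIs. No paired analysis was possible because each genotype has 1 library.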

Other observations

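Plasma-like cells, antibody-secreting cells with a large reticulum, were too few for a comparison, at 21 in the Cre and 4 in the control library. Their chaperone arm stood at 15627 CPM (15186 to 16077) in Cre and 8875 CPM (8115 to 9688) in control cells, above every class described in the report in the same library. Hsp90b1 had 4370 CPM (4138 to 4611) in Cre and 2409 CPM (2021 to 2850) in control cells, and Xbp1 840.4 CPM (741 to 950) in Cre and 461 CPM (301 to 675) in control cells. With 4 control cells, single cells weigh heavily in these levels. The Atf4 arm was at 430.1 CPM (360 to 510) in Cre and 478 CPM (315 to 696) in control cells, intervals that overlap.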
